A study of Mus musculus with 6 samples.

Results

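GATA6 regions called in exactly 2 of 3 libraries and in no GATA4 library were described in mouse extra-embryonic endoderm (XEN) cells. The regions were chosen by the calls themselves: the 6 lists of called regions were merged wherever regions overlapped or touched, which gave 201994 merged regions, and those called in exactly 2 GATA6 libraries and 0 GATA4 libraries were kept. The rule found 3256 regions, 1.61% of all merged regions. They are called GATA6 2-library regions here. Because the calls chose them, their signal and their absence from the GATA4 lists are descriptions and are given without a test.

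GATA4 and GATA6 were profiled by CUT&RUN in the starting XEN cells to find where the factors bind. In this assay an antibody brings a nuclease to the factor on chromatin, and the short pieces of DNA it frees are read by sequencing. There were 3 libraries for GATA4 and 3 for GATA6, all from the XEN line given in the labels as genotype 3F2, with 500000 cells and 30000000 reads stated for each sample. Lines of this series carry the inducible reprogramming cassette for Oct4, Klf4 and Sox2, its doxycycline-responsive activator and an Oct4-GFP reporter in both groups, and no doxycycline is stated for these samples. The study's methods also name a line 3F6, so the libraries may not all be of 1 line. The methods give 2 replicates and the labels 3 per factor, so which libraries are separate replicates is uncertain, and nothing in the labels says that they came from separate cultures. The files hold region lists and no RNA, so the XEN identity could not be checked against marker genes.

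XEN cells are stem cells derived from the primitive endoderm (PrE), the layer of the early embryo that forms the yolk sac. GATA6 and GATA4 are zinc finger transcription factors of that lineage and recognise the same short motif, GATA preceded by A or T and followed by A or G, written WGATAR. GATA6 acts early in the choice between PrE and epiblast, where NANOG marks the epiblast, and both factors can drive pluripotent cells towards the XEN state.

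The DNA under the regions is shown first, because whether these regions hold the motif of the factor that was pulled down is the main question their sequence can answer. Each window reaches 100 bp to either side of the midpoint of the merged region and is read from the + strand of GRCm38 (mm10). Capitals mark WGATAR, which on the opposite strand reads TATC preceded by C or T and followed by A or T. The regions are those of highest signal rank in their lists, leaving out windows that touch an annotated exon.

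The 5 distal regions with WGATAR lay in intergenic sequence on chromosome 8 (nearest TSS, of the non-coding gene Gm45589, at 79398 bp), intergenic sequence 7143 bp from the TSS of Gm4791 on chromosome 9, intergenic sequence 2350 bp from the TSS of Cwf19l1 on chromosome 19, an intron of Abcc2, an organic anion exporter gene, on chromosome 19, and an intron of Myo16, an unconventional myosin gene, on chromosome 8. Each held 1 WGATAR, at a different place in its window.
intergenic region, chr8:63660064-63660264: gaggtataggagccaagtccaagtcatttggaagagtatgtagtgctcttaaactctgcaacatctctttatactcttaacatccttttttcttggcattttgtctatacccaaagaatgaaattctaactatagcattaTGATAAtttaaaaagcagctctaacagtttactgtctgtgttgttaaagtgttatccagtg
intergenic region, chr9:47005784-47005984: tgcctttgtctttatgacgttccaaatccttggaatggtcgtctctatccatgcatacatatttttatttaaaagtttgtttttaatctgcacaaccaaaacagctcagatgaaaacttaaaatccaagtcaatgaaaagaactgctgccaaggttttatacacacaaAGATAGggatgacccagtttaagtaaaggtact
intergenic region, chr19:44138126-44138326: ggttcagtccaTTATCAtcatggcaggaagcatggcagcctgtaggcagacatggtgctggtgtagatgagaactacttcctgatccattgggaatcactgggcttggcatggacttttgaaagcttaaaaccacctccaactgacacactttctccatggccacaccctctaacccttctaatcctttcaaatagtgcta
intron region, chr19:43788903-43789103: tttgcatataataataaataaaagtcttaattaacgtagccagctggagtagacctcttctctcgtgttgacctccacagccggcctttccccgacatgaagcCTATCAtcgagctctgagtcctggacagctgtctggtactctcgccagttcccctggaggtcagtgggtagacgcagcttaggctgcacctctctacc
intron region, chr8:10441355-10441555: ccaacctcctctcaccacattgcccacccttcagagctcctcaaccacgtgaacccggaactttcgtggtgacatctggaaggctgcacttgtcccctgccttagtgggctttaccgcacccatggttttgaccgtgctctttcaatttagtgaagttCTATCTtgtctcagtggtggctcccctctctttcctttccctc

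The 2 distal regions of highest rank without WGATAR lay in an intron of Hrasls5 on chromosome 19 and an intron of Sh3bp5, 7634 bp from the TSS of Capn7, a calpain protease gene, on chromosome 14. They outrank the 5 shown above.
intron region, chr19:7619949-7620149: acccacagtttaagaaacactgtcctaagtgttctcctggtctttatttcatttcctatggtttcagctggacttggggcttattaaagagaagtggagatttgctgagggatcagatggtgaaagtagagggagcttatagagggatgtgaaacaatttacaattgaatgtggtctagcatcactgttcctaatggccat
intron region, chr14:31373090-31373290: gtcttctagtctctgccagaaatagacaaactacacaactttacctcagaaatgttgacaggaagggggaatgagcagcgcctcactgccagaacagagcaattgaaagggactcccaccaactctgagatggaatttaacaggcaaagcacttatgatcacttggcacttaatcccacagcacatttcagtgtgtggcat

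The 2 promoter regions shown lay within 1 kb of a TSS of the non-coding gene Gm45646 on chromosome 8 and of Olfr221, an olfactory receptor gene, on chromosome 14. The window at Olfr221 held 2 copies of WGATAR and that at Gm45646 held 0. These windows are not typical of the promoter regions. Their GC content was 41.8% and 43.8%, against a median of 57.2% over all promoter GATA6 2-library regions, of which 16.9% held WGATAR. Promoter windows of higher rank touched an exon and are not shown.
promoter region, chr8:26759629-26759829: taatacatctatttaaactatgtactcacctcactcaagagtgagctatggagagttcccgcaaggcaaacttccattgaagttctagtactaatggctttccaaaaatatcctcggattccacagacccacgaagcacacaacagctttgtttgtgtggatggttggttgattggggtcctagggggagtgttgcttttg
promoter region, chr14:52041580-52041780: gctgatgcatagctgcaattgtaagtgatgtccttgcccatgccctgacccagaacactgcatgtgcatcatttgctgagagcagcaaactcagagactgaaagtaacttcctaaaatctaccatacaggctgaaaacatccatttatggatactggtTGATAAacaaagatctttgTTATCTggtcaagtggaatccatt

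The number of GATA6 2-library regions was compared with the numbers of regions called in any other pair of libraries. There were 1102 regions in GATA6 replicates 1 and 2, 1196 in replicates 1 and 3, and 958 in replicates 2 and 3. The mean of these pairs was 1085 ± 120 (SD, 3 pairs). Each of the 9 cross-factor pairs, made of 1 library of each factor, had between 872 and 1364 regions of its own, with a mean of 1108 ± 156 (SD, 9 pairs). The GATA6 counts lay inside the range of the cross-factor pairs. The 3 pairs of GATA4 libraries had 1382 to 1580, with a mean of 1501 ± 105 (SD, 3 pairs), all above both of the other kinds. The GATA4 lists are longer (49597, 46646 and 48397 regions) than the GATA6 lists (46484, 42446 and 44539). Counts by pair depend on list length and were not adjusted for it. Regions called in exactly 2 GATA4 libraries and no GATA6 library (GATA4 2-library regions) numbered 4504, 2.23% of all merged regions. Pairs that share a library are not independent, and these counts were chosen by the rule, so no test was made.

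**Figure D1:**
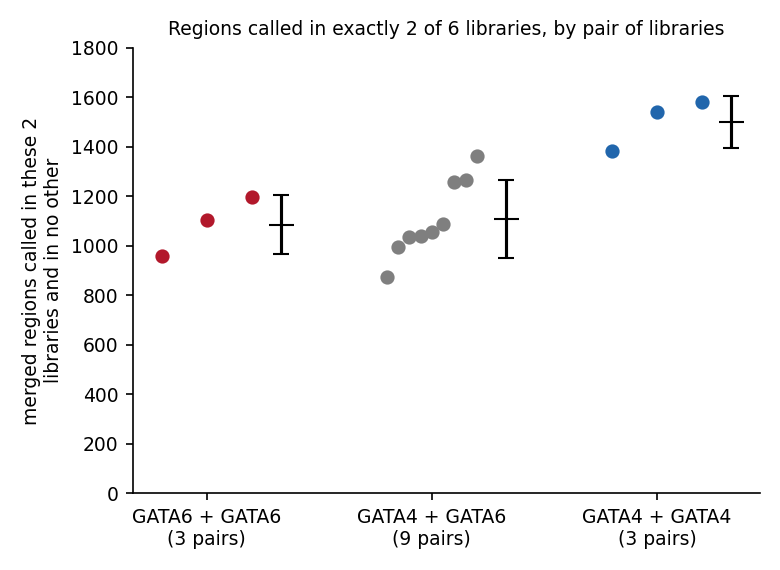
Number of merged regions called in the 2 libraries of a pair and in no other library (y axis), 1 point per pair of libraries, grouped by the factors of the pair, with the mean and SD beside the points. The 3 GATA6 pairs lie between 958 and 1196, inside the range of the 9 cross-factor pairs, and the 3 GATA4 pairs lie above.

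Of the merged regions called in exactly 2 GATA6 libraries, 1857 were also called in 1 GATA4 library, 1690 in 2 and 2299 in all 3, beside the 3256 called in none. Regions called in all 3 GATA6 libraries and no GATA4 library numbered 186. The median distance from a GATA6 2-library region to the nearest region of any GATA4 list was 3154 bp, and 471 regions (14.5%) had such a neighbour within 500 bp. The list of the third GATA6 library was sparser around them, with a median distance of 8417 bp and 163 regions (5.01%) within 500 bp, but 1 list is set here against 3. The GATA4 2-library regions lay at the same median of 3154 bp from the nearest region of any GATA6 list, with 643 of 4504 (14.3%) within 500 bp. None of the 3256 regions overlapped the combined list of either factor, which holds regions present in all replicates, and this follows from the rule.

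The rule turns on single base pairs at its edge. The 3 members nearest to a GATA4 region had only 2 bp between them and it. They lay 37 bp from the TSS of Chchd1 on chromosome 14 (20702663 to 20703274, maximum signal 5 and 4), at 36787578 to 36788312 on the same chromosome and at 79871759 to 79872440 on chromosome 8. Just outside, regions on chromosome 14 at 61623210 to 61624657 and 31752593 to 31753701 shared 3 and 4 bp with a GATA4 region, and a region on chromosome 2 at 168955074 to 168956429 shared 7 bp. Among the 5846 regions with exactly 2 GATA6 calls that were left out for a GATA4 call, 38 shared less than 50 bp with it.

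Most of the regions rested on few fragments. Signal is given by library, as the highest number of stacked fragments in the region (maximum signal) and as the rank of its total signal within its own list, because the deposited values are not scaled for depth. GATA6 replicate 1 contributed 2311 calls (4.97% of its 46484 regions), replicate 2 contributed 2067 (4.87% of 42446) and replicate 3 contributed 2162 (4.85% of 44539). Their median maximum signal was 4 in each library, and the highest was 15, 16 and 14. The median maximum of all regions was also 4 in each of the 6 lists. A maximum of 5 or less was seen in 86.4%, 89.6% and 86.9% of these calls, against 79.6%, 82.98% and 80.3% of all regions of the same 3 lists. Their median percentile was 51.1, 48.4 and 48.8, the middle of each list. Single-library GATA6 regions, those called in 1 GATA6 library and no GATA4 library, had medians of 39.9 to 40.7, and regions called in all 6 libraries had medians of 90.8 to 91.5 in the GATA6 lists.

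The 2 calls of a region often overlapped only in part. Their overlap had a median of 290 bp, which was 43.9% of the merged width, and in 4 regions the calls only touched. The merged regions were 725 bp wide in the median (quartiles 584 and 892 bp).

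When the regions were ordered by the lower of their 2 maximum signals, 1987 had a value of 3 or less, 844 of 4, 372 of 5 to 7 and 53 of 8 or more. The tallest were narrower, with a median width of 384 bp against 790 bp at 3 or less. They were also farther from GATA4 calls, with a median distance of 6755 bp against 3249 bp. Chromosomes 8, 14 and 19 held 13.2% of the tallest and 51.9% of those at 3 or less. The median distance from a GATA6 2-library region to a GATA4 call was 2047 bp on these chromosomes and 5057 bp elsewhere. Height and chromosome were not separated here. Promoters made up 34.4% of those at 5 to 7 (128 of 372) and 28.3% of those at 8 or more (15 of 53), against 7.30% at 3 or less (145 of 1987). The share was likewise higher at 5 to 7 than at 3 or less in the GATA4 2-library regions (25.9% and 11.3%), and in regions called in 1 library of each factor (30.5% and 8.19%). Distal regions of 8 or more had a median GC content of 51.0%, against 42.8% at 3 or less. Height was part of what the caller used, so these are descriptions.

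**Figure D2:**
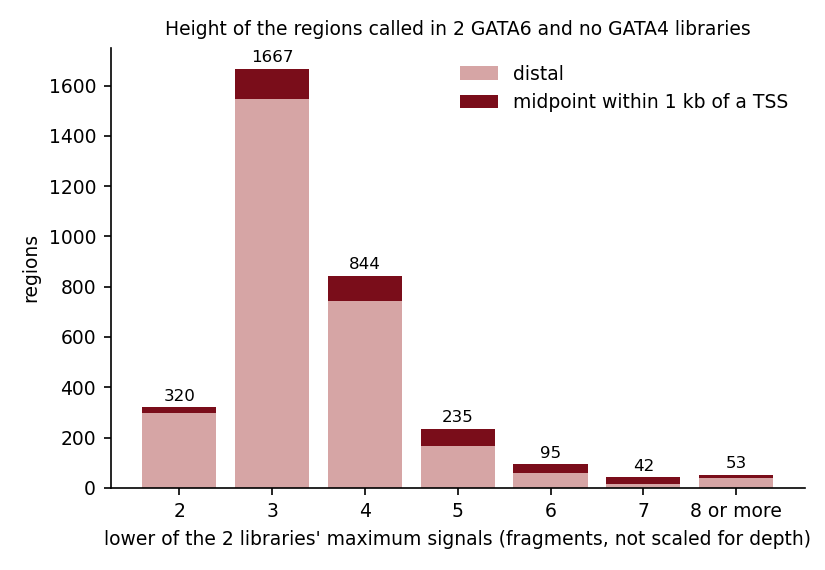
Number of GATA6 2-library regions (y axis) by the lower of the maximum signals in their 2 libraries (x axis, stacked fragments, not scaled for depth), divided into distal regions and those with the midpoint within 1 kb of a TSS. The highest bar is 1667 regions at a maximum of 3, and 53 regions reach 8 or more.

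The regions of highest rank in each pair of GATA6 libraries were partly tall promoter regions and partly low, broad regions between or within genes. In replicates 1 and 2 the first was at the promoter of Mindy2, a deubiquitinase gene (chromosome 9, 70657128 to 70657736, midpoint 258 bp from the TSS), with maximum signals of 12 and 9 and percentiles of 97.2 and 96.1. It stood 14314 bp from the nearest GATA4 region and held no WGATAR. It was followed by an intergenic region on chromosome 1 at 157961158 to 157962531 with maxima of only 5 and 3, by a region in an exon of Got1, the cytosolic aspartate aminotransferase gene (chromosome 19, 43512107 to 43513107, maxima of 4 and 4), and by an intronic region of Med12l at 59203257 to 59204270 on chromosome 3 (maxima of 5 and 4). Of these 4, the Got1 region held WGATAR.

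In replicates 1 and 3 the highest was the Hrasls5 region shown above (chromosome 19, 7619192 to 7620905), with maxima of 5 and 5, percentiles of 96.2 and 98.9 and a GATA4 region 120 bp away. The next were in an intron of Bach2, a gene for a transcriptional repressor (chromosome 4, 32250014 to 32251459, maxima of 4 and 7), at the promoter of Arf5, a small GTPase gene of membrane traffic (chromosome 6, 28423275 to 28423763, 41 bp from the TSS, maxima of 13 and 7), and between genes near AW822073 on chromosome 10 (58210904 to 58211746, maxima of 4 and 7). The Arf5 region had a GATA4 region at 428 bp and the Bach2 region at 36448 bp.

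In replicates 2 and 3 the highest was the Sh3bp5 intron on chromosome 14 (31372471 to 31373909, maxima of 5 and 4, percentiles of 95.4 and 96.1). It was followed by an intron of Ahnak, a large scaffold protein gene (chromosome 19, 9034597 to 9035994, maxima of 6 and 4), the promoter of Lrp11, a gene related to the low density lipoprotein receptor (chromosome 10, 7589584 to 7590009, 3 bp from the TSS, maxima of 11 and 12), and a region 970 bp from the TSS of Exoc8, an exocyst subunit gene (chromosome 8, 124896436 to 124897033, maxima of 7 and 4). The Lrp11 region was 426 bp wide and the Sh3bp5 region 1439 bp, so a high total signal came from height in the former and from width in the latter. In all, 1 of these 12 regions, chosen by rank, held WGATAR within 100 bp of its midpoint. Over all GATA6 2-library regions it was held by 16.9% of promoter and 37.8% of distal regions. Over all merged regions the shares were 24.2% and 41.2%.

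Position relative to genes was compared next, since the rule did not use it. A region was counted at a promoter when its midpoint was no more than 1 kb from a transcription start site (TSS) in the annotation. Of the 3256 regions, 390 (11.98%, exact 95% binomial interval 10.9 to 13.1) were at promoters, 114 in other exons, 1398 (42.9%) in introns and 1354 (41.6%) between genes, and the median distance to a TSS was 16599 bp. Among all merged regions 10.0% were at promoters. The share was 17.1% for the GATA4 2-library regions (772 of 4504), a difference of -5.16 percentage points (95% interval -6.72 to -3.58, adjusted exact p = 4.89e-10). It was 13.98% for regions called in 1 GATA4 and 1 GATA6 library (cross-factor regions, 1394 of 9973), a difference of -2 points (-3.28 to -0.662, adjusted exact p = 0.00471). It was 5.96% for single-library GATA6 regions, a difference of 6.02 points (4.93 to 7.19, adjusted exact p = 1.08e-35). These and the following adjusted exact p-values are from Fisher's exact test, two-sided, over regions, which are not replicates, with Benjamini-Hochberg adjustment over 10 shares. By pair of libraries, the shares of the GATA6 pairs (10.8% to 13.9%) lay below all GATA4 pairs (16.1% to 19%) and overlapped those of the cross-factor pairs (11.5% to 16.8%). Leaving out a library redefined the classes, since calls were then counted only in the libraries left. Both remaining libraries of that factor were then required for its 2-library regions. The difference from the GATA4 2-library regions was -5.73, -5.74 and -8.02 points without GATA4 replicates 1, 2 and 3. It was -2.54 points and did not pass the test (adjusted exact p = 0.149) without chromosomes 8, 14 and 19 and segments of chromosomes 1 and X, where the regions were dense. The difference from the cross-factor regions was within the spread between pairs, and it did not pass the test without GATA6 replicate 1 (-1.04 points, adjusted exact p = 0.402) or 2 (-1.95, adjusted exact p = 0.0832), while without GATA4 replicate 3 it was -4.60 points.

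The promoter regions were GC-rich, with a median GC content of 57.2% and a median of 8 CpG in the same window, against 43.3% and 1 in the distal regions. WGATAR was found in 66 of the 390 promoter windows (16.9%, exact 95% interval 13.3 to 21.02), against 30.6% of windows 2 kb to either side. Over all promoter regions it was 24.2% against 31.0% at the sides, and it was 24.9% in the GATA4 2-library, 21.4% in the cross-factor and 27.4% in the single-library GATA6 promoter regions, so a share below that of the flanks was seen in every class. The promoters of highest rank, singled out after their values were seen, were those of Mindy2, Lrp11, Arf5, Exoc8, Dtx2, Eif2b4, Emg1 and Fndc3b, and none of these windows held WGATAR. At Dtx2, an E3 ubiquitin ligase gene of the Notch pathway, the maximum signal was 12 and 12 in replicates 2 and 3 and the nearest GATA4 region was 636 bp away. At Fndc3b it was 10 and 13 in replicates 1 and 3. At Eif2b4, a subunit of the guanine nucleotide exchange factor of translation initiation, it was 10 and 7 in replicates 2 and 3, with no GATA4 region within 8656 bp.

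The motif was then sought in the distal regions, where GATA factors are known to act at enhancers. WGATAR lay within 100 bp of the midpoint in 1084 of 2866 distal GATA6 2-library regions (37.8%, exact 95% interval 36.0 to 39.6), 807 with a single copy and 277 with more. This was below the 41.2% of all distal merged regions. The share was 49.0% in the GATA4 2-library regions (1829 of 3732), a difference of -11.2 points (95% interval -13.6 to -8.78, adjusted exact p = 2.56e-19), and 42.4% in the cross-factor regions (3636 of 8579), a difference of -4.56 points (-6.61 to -2.49, adjusted exact p = 2.48e-05). With the classes redefined as above, the difference from the GATA4 2-library regions was -14.4, -12.8 and -18.96 points without GATA4 replicates 1, 2 and 3. That from the cross-factor regions did not pass the test without GATA6 replicate 3 (-2.64 points, adjusted exact p = 0.111), and it was -7.35 points without GATA6 replicate 1. Without the dense chromosomes and segments it was -4.11 points (95% interval -7.41 to -0.757, adjusted exact p = 0.0572). That adjustment still counted the chromosome shares, which held no regions there, so whether this difference passes is not settled. Single-library GATA6 regions had 38.5%, and the difference of -0.629 points (-2.42 to 1.19, adjusted exact p = 0.506) did not pass the test. By pair, the GATA6 pairs had 35.5% to 39.6%, below every GATA4 pair (46.0% to 54.1%) and overlapping the cross-factor pairs (39.0% to 45.4%) at their lower end.

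**Figure D3:**
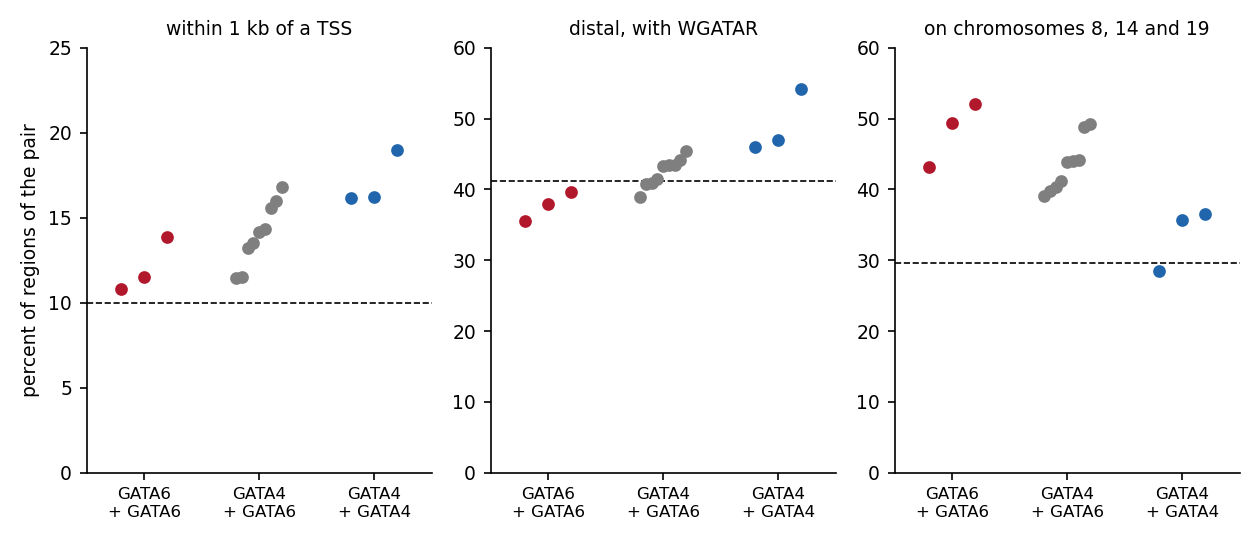
Share of the regions of each pair of libraries (y axis, percent) that lie within 1 kb of a TSS, of the distal regions that hold WGATAR within 100 bp of the midpoint, and of the regions on chromosomes 8, 14 and 19, with 1 point per pair and a dashed line at the share among all merged regions. The 3 GATA6 pairs have lower promoter and motif shares and higher shares on chromosomes 8, 14 and 19 than the 3 GATA4 pairs, without overlap.

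The same windows placed 2 kb to either side of the distal GATA6 2-library regions held WGATAR in 36.2%, a difference of 1.64 points (95% interval -0.519 to 3.81, adjusted exact p = 0.157). The test and the interval took regions and flanks as independent, although each flank belongs to one of the regions. The call depended on where the window was centred: centred on the interval of maximum signal, the difference was 3.56 points and passed the test (adjusted exact p = 0.0017). In windows of 50 bp to either side, 23.1% of the distal regions held WGATAR at the maximum, against 20.2% in the window 100 bp to the left and 20.9% in that to the right. The corresponding shares were 31.9%, 27.8% and 26.3% in the GATA4 2-library regions, and 26.1%, 22.7% and 23.1% in the cross-factor regions.

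**Figure D4:**
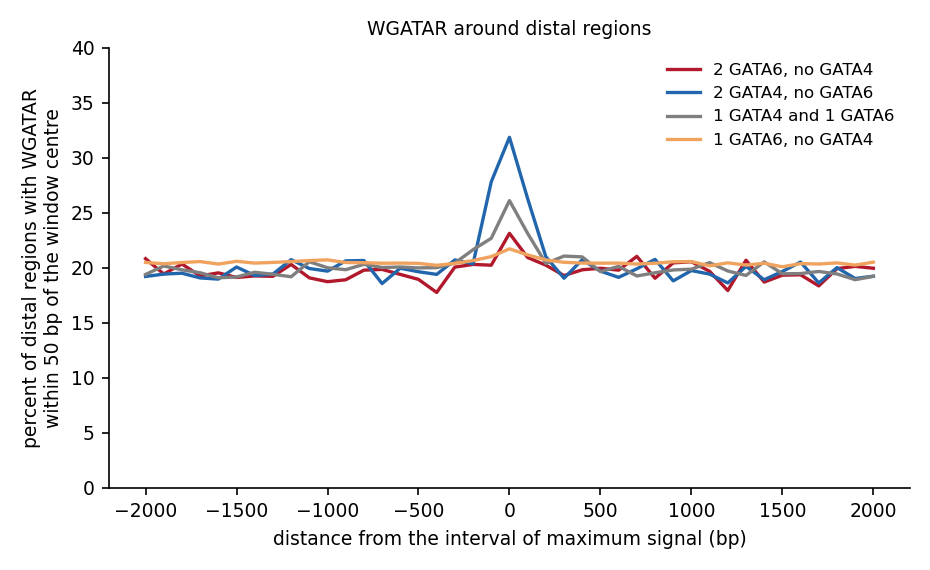
Percent of distal regions with WGATAR within 50 bp of a window's centre (y axis) by the distance of that centre from the interval of maximum signal (x axis, bp), for 4 classes of regions. The share at the centre is 31.9% for GATA4 2-library regions, 26.1% for cross-factor regions, 23.1% for GATA6 2-library regions and 21.7% for single-library GATA6 regions.

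The motif share was also read by height. Distal GATA6 2-library regions with a lower maximum of 3 or less held WGATAR in 36.8% of cases, against 37.7% of their flanks, and those of 4 in 39.5%, against 35.04%. Those of 5 to 7 held it in 103 of 244 cases (42.2%, exact 95% interval 35.9 to 48.7), against 30.9% of their flanks, and those of 8 or more in 10 of 38 (26.3%, 13.4 to 43.1), against 19.7%. The GATA4 2-library regions of 5 to 7 and of 8 or more had 59.5% (464 of 780, 55.9 to 63.0) and 50.7% (36 of 71, 38.6 to 62.8), and the cross-factor regions of these heights had 44.4% and 34.3%. With windows centred on the maximum signal, the GATA6 2-library shares from lowest to tallest were 38.8%, 39.9%, 43.4% and 15.8%. So centred, the GATA4 2-library regions of 5 to 7 and of 8 or more had 65% and 57.7%, and the cross-factor regions 46.8% and 32.4%. Heights are not scaled for depth, so equal values in different libraries need not mean equal occupancy. These groups were formed after the data were seen and were not tested.

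The chromosomes differed in how many of the regions they held. Chromosomes 8, 14 and 19, picked because earlier results of these data showed many calls there, are 11.5% of the assembled genome and held 1578 of the 3256 regions (48.5%, exact 95% interval 46.7 to 50.2), against 29.6% of all merged regions. The share was 33.6% in the GATA4 2-library regions, a difference of 14.9 points. In the cross-factor regions it was 43.6%, a difference of 4.83 points, and in single-library GATA6 regions 29.4%. Since the chromosomes were chosen for their calls, and calls of any 2 libraries meet more often where calls are dense, these shares are descriptions and no test is given. The GATA6 pairs ranged from 43.2% to 52.1%, the cross-factor pairs from 39.0% to 49.3% and the GATA4 pairs from 28.5% to 36.6%. Without GATA6 replicate 1 the difference from the cross-factor regions was 2.12 points, and without GATA4 replicate 3 or GATA6 replicate 3 it was 7.88 and 8.05 points.

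Per Mb of assembled sequence, there were 5.17 regions on these 3 chromosomes, 6.72 on chromosome 1 from 150 to 170 Mb, 4.46 on chromosome X from 70 to 110 Mb and 0.599 in the rest of the genome. These 3 densities were thus 8.64, 11.2 and 7.44 times that of the rest. The corresponding ratios were 6.81, 8.28 and 5.90 for the cross-factor regions, nearest to these. For the GATA4 2-library regions they were 4.24, 6.78 and 3.58, and for single-library GATA6 regions 3.42, 4.19 and 3.41. The density of GATA6 2-library regions was close to that of GATA4 2-library regions on chromosome 8 (5.58 and 5.33 per Mb) and chromosome 19 (5.60 and 5.55), and it was lower on every autosome other than 8, 14 and 19, for example 0.533 and 1.26 on chromosome 2. Copy number was not measured, and its part in the result was not tested.

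**Figure D5:**
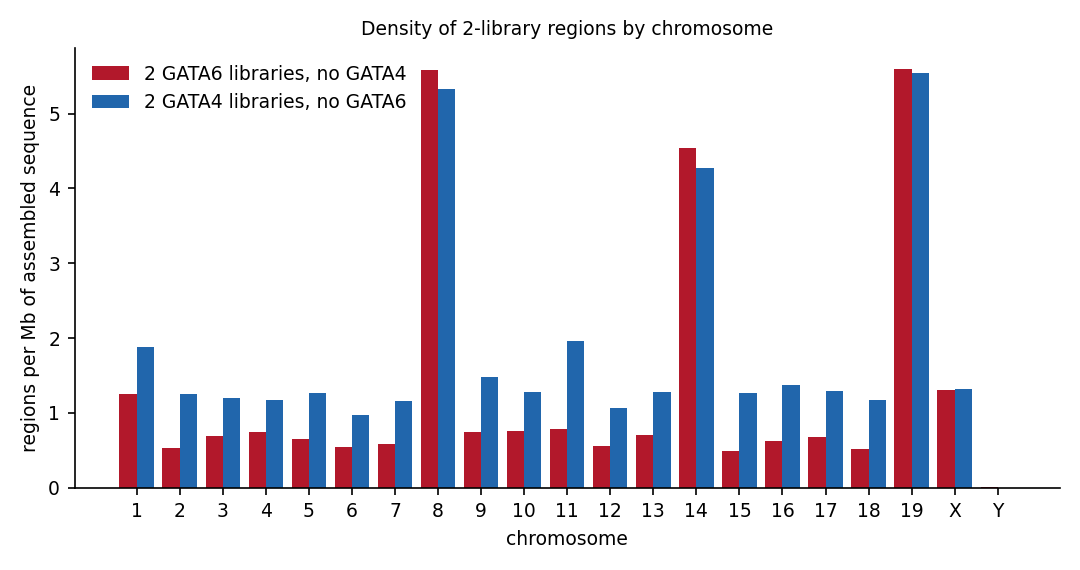
Regions per Mb of assembled sequence (y axis) on each chromosome (x axis) for GATA6 2-library and GATA4 2-library regions. GATA6 2-library regions reach 5.58, 4.54 and 5.60 per Mb on chromosomes 8, 14 and 19.

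Promoter and motif shares were also read separately on those chromosomes and the others. On chromosomes 8, 14 and 19, 87 of 1578 regions (5.51%) were at promoters, and 36.1% of 1491 distal regions held WGATAR, against 36.1% in their own flanks. On the other chromosomes 303 of 1678 (18.1%) were at promoters, and 39.7% of 1375 distal regions held WGATAR, against 36.3% in their flanks. Other classes also had a lower promoter share on chromosomes 8, 14 and 19 than elsewhere, with 6.79% and 11.4% over all merged regions, 7.14% and 22.2% in the GATA4 2-library regions and 6.94% and 19.4% in the cross-factor regions. WGATAR was in 40.2% and 41.6% of all distal merged regions there and elsewhere, in 42.7% and 52.8% of the distal GATA4 2-library regions and in 40.0% and 44.5% of the cross-factor regions. Without chromosomes 8, 14 and 19 the difference in motif share from the GATA4 2-library regions was -13.1 points (adjusted exact p = 5.09e-14), and that in promoter share -4.14 points (adjusted exact p = 0.00269). Of the 53 regions with a maximum of 8 or more in both libraries, 7 (13.2%) were on chromosomes 8, 14 and 19.

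Genes near the regions were counted against lists of genes of the early embryo. Of 21911 protein-coding genes, 384 (1.75%) had a GATA6 2-library region within 1 kb of a TSS and 3674 (16.8%) had one within 50 kb. On chromosomes 8, 14 and 19 the latter share was 46.9%, and on the others 12.6%, and list counts differ with how many listed genes lie there. These were 2 of 9 PrE transcription factors, 3 of 12 receptor and signalling genes, 3 of 13 basement membrane genes and 3 of 12 AP-1 genes. They were 1 of 11 endocytosis and carrier genes, 1 of 7 parietal endoderm and keratin genes and 0 of 10 trophoblast genes. Of pluripotency genes 4 of 24 lay there, of ribosomal protein genes 4 of 80 and of histone genes 0 of 67. No member of the lists of PrE transcription factors, PrE receptors and signalling genes, basement membrane genes, endocytosis and carrier genes, parietal endoderm and keratin genes, AP-1 genes and trophoblast genes (9, 12, 13, 11, 7, 12 and 10 genes) had a region within 1 kb of a TSS. In the same order, 4, 2, 4, 3, 1, 5 and 2 of them had one within 50 kb. The counts are descriptions and were not tested.

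Among the PrE transcription factors, the genes with a region within 50 kb were Gata4, Sox17, Sox7 and Hnf4a. Gata4 and Sox7 are on chromosome 14. Gata4 had 3 such regions, and the nearest, 22020 bp from its TSS at 63293314 to 63294110, had maxima of 4 and 4 in replicates 1 and 2, percentiles of 12.3 and 17.6, no WGATAR and a GATA4 region 62 bp away. The region nearest to Sox17, which encodes an endoderm factor, lay 8482 bp from the TSS (chromosome 1, 4505273 to 4506398, maxima of 3 and 2). The one nearest to Sox7 lay 21805 bp away (63921369 to 63922366, maxima of 4 and 3) and held WGATAR. The one nearest to Hnf4a, a nuclear receptor gene of visceral endoderm, lay 24527 bp away (chromosome 2, 163481995 to 163482566, maxima of 6 and 4 in replicates 2 and 3).

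The basement membrane genes with a region within 50 kb were Lamc1, Col4a2, Nid2 and Agrn, which encode a laminin chain, a collagen IV chain, nidogen 2 and agrin. The region in an intron of Nid2 (chromosome 14, 19776494 to 19777356, 8688 bp from the TSS) was the tallest of these, with maxima of 6 and 12 in replicates 1 and 2, and it stood 5693 bp from the nearest GATA4 region. The region in an intron of Lamc1 (chromosome 1, 153223050 to 153223772, 5733 bp from the TSS) had maxima of 4 and 3 in replicates 1 and 3 and held WGATAR. Lamc1 had 4 regions within 50 kb and lies in the dense segment of chromosome 1. Col4a2 on chromosome 8 and Nid2 on chromosome 14 also lie where regions were dense. Among the carrier genes, an intronic region of Apob, the apolipoprotein B gene (chromosome 12, 7997076 to 7998142), had maxima of 5 and 3 in replicates 1 and 3 and no GATA4 region within 18185 bp. Dusp4, which encodes a phosphatase of the ERK pathway, had a region 2116 bp from its TSS with maxima of 5 and 3 in replicates 1 and 2 (chromosome 8, 34804764 to 34805597).

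Of 24 pluripotency genes, 2 had a region within 1 kb of a TSS, Nanog and Sall4, and 11 (45.8%) had one within 50 kb. Of all protein-coding genes 1.75% and 16.8% did. Chromosomes 8, 14 and 19 hold 4 of the 24, and 46.9% of all genes there had a region within 50 kb, against 12.6% elsewhere. The region at Nanog, which encodes the homeodomain factor of the epiblast, lay on chromosome 6 at 122707457 to 122708029, with its midpoint 175 bp from the TSS. It was called in replicates 1 and 3 with maxima of 5 and 5 and percentiles of 6.81 and 46.0, it held WGATAR, and the nearest GATA4 region was 12067 bp away. The region at Sall4, a zinc finger factor gene of pluripotent and early endoderm cells, lay on chromosome 2 at 168767768 to 168768451, with its midpoint 167 bp from the TSS. It was called in replicates 1 and 2 with maxima of 5 and 3 and percentiles of 80.7 and 50.1, it held no WGATAR, and a GATA4 region lay 108 bp away. Klf5 had 2 regions within 50 kb, the nearest 3077 bp from its TSS with maxima of 3 and 6 and with WGATAR (chromosome 14, 99295350 to 99295877). The region nearest to Klf4 lay 2190 bp from its TSS with maxima of 3 and 4 (chromosome 4, 55534403 to 55534909). The other genes were Klf2, Esrrb, Zfp42, Tfcp2l1, Tbx3, Gdf3 and Nr0b1, and the tallest region among them, 32801 bp from Tbx3, had maxima of 10 and 6 in replicates 1 and 2.

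Of 80 genes of cytosolic ribosomal proteins, 2 had a region within 1 kb of a TSS (2.5%) and 15 within 50 kb (18.75%), and of 67 replication-dependent histone genes 3 (4.48%) and 21 (31.3%). The region at Rpl35 also lay 42 bp from the TSS of Arpc5l, with maxima of 7 and 8 in replicates 1 and 3. The region near Rps18 lay 151 bp from the TSS of B3galt4. A single region on chromosome 13, with maxima of 5 and 8 in replicates 2 and 3, lay within 1 kb of both Hist1h2ah and Hist1h2bk. Regions near clustered histone genes are shared by many listed genes, so their count within 50 kb is not a count of separate regions.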

How the data were processed

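The authors profiled GATA4 and GATA6 in XEN cells by CUT&RUN. Per the labels and the study's methods, paired-end reads were aligned to mm10 with Bowtie2 2.3.4.1, reads that were duplicated, poorly mapped, mitochondrial or in blacklisted positions were removed with Picard, SAMtools and bedtools, and regions were called in each library with SEACR 1.3 in stringent mode without normalisation, with a numeric threshold and no IgG control. A threshold of this kind largely fixes the number of regions per library. The deposited lists give per region a total and a maximum signal of the fragment pileup, not scaled for depth, and the combined lists give positions only. The reads left per library after filtering are unknown, so signal was compared only within a list, and intervals over regions cover counting error only.

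Groups and replicate numbers came from the sample titles, with n = 3 libraries per factor, where the study's methods give 2 replicates. Lists were merged as stated, and the motif was sought on both strands in GRCm38 sequence. TSSs of all transcripts of protein-coding and lncRNA genes were taken from GENCODE M21. Shares of regions were compared by Fisher's exact test with Newcombe intervals and Benjamini-Hochberg adjustment over 10 shares, in regions as units. The 10 include the chromosome shares, whose tests the choice of chromosomes made uninformative, so their p-values are not given. Where those chromosomes were left out, the empty chromosome shares still counted in the adjustment, which raised the adjusted p-values. The classes compared, the chromosomes, the gene lists and the alternatives were chosen with earlier results of these data known. Regions named are the 4 of highest mean percentile of total signal in each pair of GATA6 libraries, those within 1 kb of a listed gene, the nearest one to other listed genes within 50 kb, and those at the edge of the rule, unless stated otherwise. The merging and the test were checked on simulated lists with planted classes. Alternatives were equal-length and stricter lists, other merging rules, chromosomes, TSS sets, windows and motifs, and leaving out each library. Versions were matplotlib 3.10.9, statsmodels 0.14.6, scipy 1.17.1, pandas 2.3.3, numpy 2.4.6 and Python 3.11.15.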

Additional observations from a re-analysis of the deposited data

How the results depend on the processing

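Values are differences in percentage points between GATA6 2-library regions and the class named. The number of regions fell from 3256 to 1237 in stricter lists, to 1678 without chromosomes 8, 14 and 19, and, in alternatives added after seeing the data, to 1366 without the dense chromosomes and segments and to 1269 where every call had a maximum of 4 or more. Leaving out a library gave 1141 to 3919, with 1141, 1385 and 1289 without GATA6 replicates 1, 2 and 3, since both remaining libraries were then required. Without a GATA4 library there were 3846 to 3919, since calls in that library no longer excluded a region. The promoter share against the cross-factor regions lost its call without chromosomes 8, 14 and 19 (-1.37), without the dense segments (-0.805) and at a maximum of 4 or more (-2.21), and ranged from -4.60 to -1.04 with a library left out. Against the GATA4 2-library regions it was -2.54 without the dense segments. The motif share against the cross-factor regions was -4.11 without the dense segments and -7.35 to -2.64 with a library left out, and was not called without GATA6 replicate 3 (-2.64). Against single-library GATA6 regions it turned positive, with no call, without chromosomes 8, 14 and 19 (1.10), in 50 bp windows (0.289), at the maximum signal (0.594) and without the dense segments (1.82), with -3.06 to 0.468 when a library was left out. Against their own flanks, distal regions passed the test in 250 bp windows (2.29), at the maximum signal (3.56) and at a maximum of 4 or more (6.15), with -1.73 to 3.59 when a library was left out: called without any 1 GATA4 library (2.28 to 2.47) and reversed without GATA6 replicate 1 (-1.73). The share on chromosomes 8, 14 and 19 against the cross-factor regions ranged from 2.12 to 8.05 with a library left out. The cause of these changes was not tested. Some values that kept their direction and their call moved in size by over 1.5 times. The motif share against the GATA4 2-library regions, -11.2, was -21.7 in stricter lists, -7.44 in 250 bp windows and -5.88 for the core GATA, and ranged from -18.96 to -10.3 with a library left out. Against the cross-factor regions it was -8.94 in stricter lists, -2.85 in 50 bp windows and -2.84 for the core GATA. The promoter share against the GATA4 2-library regions was -3.36 at a maximum of 4 or more, and -8.02 to -3.67 with a library left out. Against the cross-factor regions it was -4.11 in stricter lists. Against single-library GATA6 regions, 6.02, it was 15.9 in stricter lists, 11.5 without chromosomes 8, 14 and 19 and 14.4 without the dense segments, and it was 9.12 without GATA4 replicate 1 and 10.1 without GATA6 replicate 1. In stricter lists the share on chromosomes 8, 14 and 19 differed by 8.85 from the cross-factor regions and by 9.81 from single-library GATA6 regions. Against their own flanks, distal regions differed by 3.38 without chromosomes 8, 14 and 19 and by 4.13 without the dense segments. These were not called, under an adjustment that still counted the empty chromosome shares. Under the other alternatives run, the promoter and motif differences kept their direction and their side of the threshold, and the differences in the share on those chromosomes kept their direction under all of theirs.

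GATA4 and GATA6 libraries share replicate numbers, but same-numbered libraries did not deviate together (correlations of 0.00597, 0.00791 and 0.00536 over 33922 regions called in at least 2 libraries), and not every library correlated best with its own number. With the pair of replicate numbers as a replicate block, the promoter, motif and chromosome differences from the GATA4 2-library regions were -5.14, -11.2 and 14.8. The promoter and motif calls did not change, and no call is given for the chromosome difference.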

Other observations

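Other short motifs were counted in the same windows, as a description. TGANTCA, the AP-1 motif, lay in 240 of 2866 distal GATA6 2-library regions (8.37%), in 8.87% of distal GATA4 2-library regions, 8.66% of cross-factor regions and 7.26% of single-library GATA6 regions, against 7.56% of all distal merged regions. ACAATG, a core of the SOX motif, lay in 13.4% of the distal GATA6 2-library regions and in 16.3% of the distal GATA4 2-library regions, against 13.98% of all. TGTTTAC, a forkhead motif, lay in 3.38% and 3.03%, against 3.37% of all. At promoters, GGGCGG, the SP/KLF motif, lay in 127 of 390 GATA6 2-library windows (32.6%), 31.7% of GATA4 2-library windows and 33.5% of cross-factor windows, against 14.1% of single-library GATA6 windows and 28.2% of all promoter windows. The median GC content of these promoter windows was 57.2%, 55.2% and 55.7% in the first 3 classes and 48.8% in the single-library GATA6 class. Its part in the difference was not tested. All motifs were sought on both strands.

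The protein-coding genes with the most GATA6 2-library regions within 50 kb of a TSS were Prkg1 on chromosome 19 and Psd3 on chromosome 8, with 8 each, and Rabgap1l on chromosome 1, Plce1, Abcc2 and Dnmbp on chromosome 19 and Dmd on chromosome X had 7 each. They were singled out after their values were seen. Chromosomes 8 and 19 and the segment of chromosome 1 that holds Rabgap1l are where calls are dense, and neighbouring genes can share regions. The counts were not set against the number of TSSs of a gene or against all merged regions near it. A combined GATA4 region lay within 50 kb of a TSS of 228 of the 384 genes with a GATA6 2-library region within 1 kb (59.4%), and of 47.6% of all protein-coding genes.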
